A study of Caenorhabditis elegans with 32 samples.

Results

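The central parts of chromosomes II, III, IV and V of Caenorhabditis elegans were followed here through 2 histone marks, H3K27ac and H3K9me2, measured by ChIP-seq (chromatin immunoprecipitation followed by sequencing) in early embryos. The reads had been counted in 500-bp windows of the ce10 genome build, and a window belonged to a center if it started between fixed coordinates on its chromosome. This took 66972 of the 200579 windows (33.4%), with 14282 on chromosome II (positions 4879493 to 12020461), 13236 on III (3722087 to 10340058), 18148 on IV (3896328 to 12970288) and 21306 on V (5897451 to 16550404). The other 67995 windows of the same 4 chromosomes, on both sides of the centers, are called arms below. The rule uses position alone, and every center window was kept, including 1345 (2.01%) in which the H3K27ac input libraries averaged fewer than 10 scaled reads. No gene annotation of ce10 was used here, so sites are given by their position.

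H3K27ac was measured in 4 groups with 3 replicates each, which were met-2Δ embryos carrying the deletion allele met-2(n4256) III, met-2-CD embryos carrying met-2(gw1660) III, HS embryos, which were wild-type (WT, N2 Bristol) embryos exposed to 37 °C, and WT embryos kept at 20 °C. H3K9me2 was measured with 2 replicates per temperature in WT embryos at 37 °C and at 20 °C, and not in the mutants. Embryos of synchronized cultures were taken before the bean stage, and both mutants were kept at 20 °C. The labels give 60 min at 37 °C for every heat-shocked sample, whereas the text of the study is not uniform on the exposure used for H3K27ac. In met-2-CD the change lies in the active site of the SET domain, which carries the methyltransferase activity. These were chromatin samples of whole embryos, so cells of different types, and fewer marked cells as against less mark per cell, cannot be told apart. In center III, 2 adjacent windows (8376567 to 8377566) had 0 input reads over the 3 met-2Δ replicates, and 0, 4 and 1 IP reads, against 177 to 297 input reads per library in the other groups. This is the chromosome on which the labels place met-2(n4256).

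MET-2 is a histone methyltransferase related to mammalian SETDB1 that places H3K9me1 and H3K9me2, marks of silent chromatin. H3K27ac marks active promoters and enhancers, and acetylated and H3K9-methylated chromatin usually lie apart. On C. elegans autosomes the centers are rich in broadly expressed genes and recombine little, whereas the arms carry more repeats, are held at the nuclear periphery and hold most H3K9 methylation. The centers are therefore the part of the autosomes in which few H3K9me2 sites are to be found.

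For every replicate the chromatin pulled down by the antibody (IP) was sequenced beside untreated chromatin of the same sample (input). The H3K27ac IP libraries held 19327992 to 36470940 counted reads, with a median of 85 to 165 reads per center window, and their inputs held 16899918 to 65133682. The H3K9me2 libraries were less even. Their IP libraries had medians of 248 and 213 reads per center window at 37 °C, against 34 and 135 at 20 °C, and their inputs had 63 and 35 at 37 °C, against 27 and 461 at 20 °C. Mitochondrial reads made up 31.98% and 45.0% of the inputs at 37 °C, against 32.8% and 4.44% at 20 °C, and at most 4.67% of any H3K27ac library. The pairs of H3K9me2 libraries at 20 °C therefore stood apart in depth and in their input, and the H3K9me2 values are given per replicate below. What part these differences have in the results was not tested.

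As a first measure, the level of a center was the log2 ratio of its share of the chromosomal IP reads to its share of the chromosomal input reads of the same replicate, so that 0 is the average of the chromosomes. H3K27ac was spread across the centers with little excess over the arms, and the 4 centers stood in a fixed order, with chromosome III highest, then II, IV and V. The mean level of center III was 0.14 ± 0.03 in met-2Δ, 0.18 ± 0.06 in met-2-CD and 0.26 ± 0.03 in HS, against 0.18 ± 0.02 in WT (SD, n = 3 each, as for the means that follow). Center II had 0.07 ± 0.01 in met-2Δ, 0.10 ± 0.03 in met-2-CD and 0.10 ± 0.03 in HS, against 0.11 ± 0.01 in WT. The order continued with center IV, which lay near the chromosome average at -0.01 ± 0.01 in met-2Δ, -0.00 ± 0.00 in met-2-CD and -0.05 ± 0.04 in HS, against 0.00 ± 0.00 in WT. Center V was the lowest, with -0.13 ± 0.04 in met-2Δ, -0.14 ± 0.04 in met-2-CD and -0.23 ± 0.06 in HS, against -0.13 ± 0.01 in WT.

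**Figure D1:**
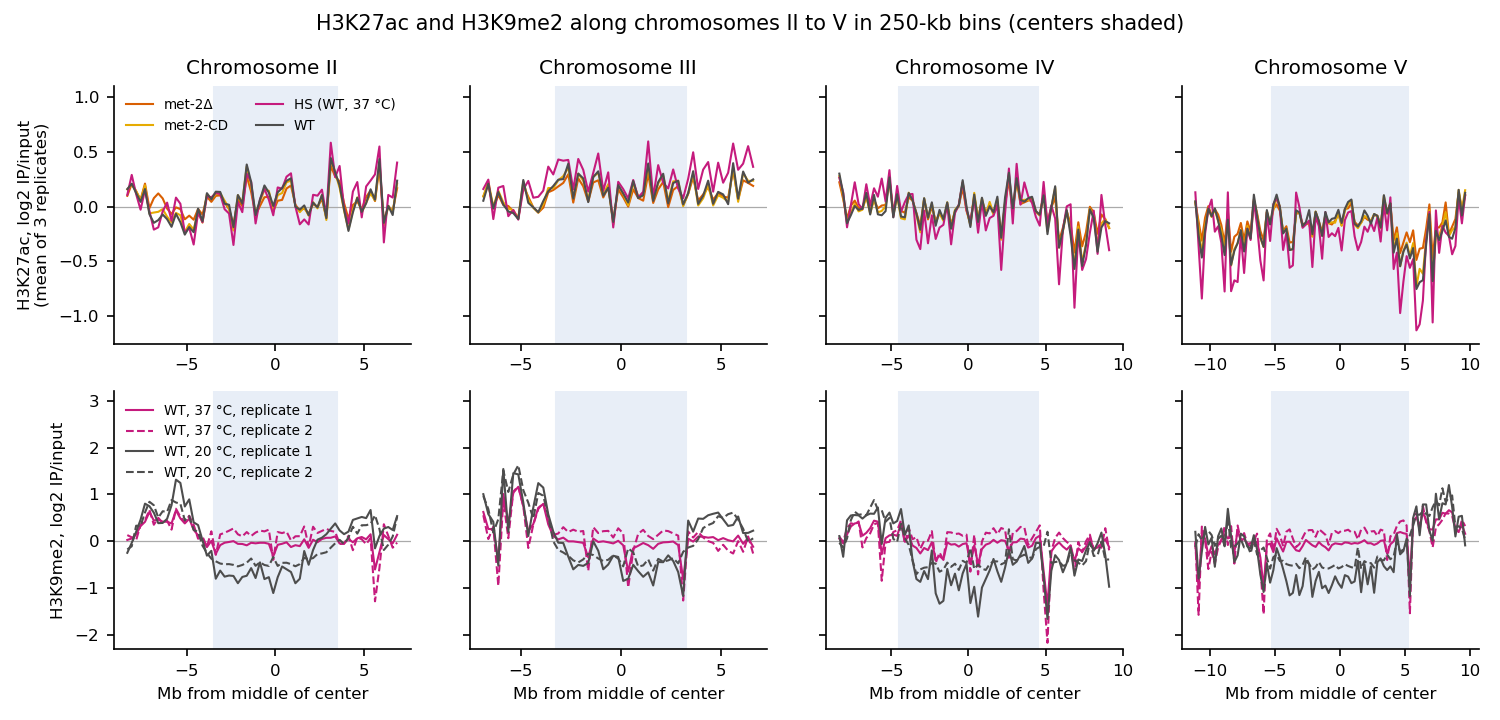
H3K27ac (top, mean of 3 replicates per group) and H3K9me2 (bottom, each replicate) along chromosomes II to V, as the log2 ratio of IP to input shares in 250-kb bins, against the distance in Mb from the middle of the center, which is shaded. H3K27ac runs close to 0 throughout the centers in all 4 groups, whereas H3K9me2 at 20 °C (grey) drops below 0 inside each center and at 37 °C (magenta) stays near 0.

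The order of the centers held in every library pair. Center III exceeded the mean of the other 3 centers by 0.21 in 12 of 12 pairs, with a range of 0.12 to 0.34, and center II exceeded it by 0.09 in 12 of 12. Center IV lay 0.05 below the mean of the other centers and center V 0.24 below it, each in 12 of 12 pairs. These 4 differences were tested by exact sign-flip permutation, two-sided, and each gave p = 0.000488 and the same p after Benjamini-Hochberg adjustment over 4 tests, the smallest p that 12 pairs can give. The centers also exceeded the arms of their own chromosomes. The excess was 0.05 ± 0.05 over all 4 chromosomes (SD over 12 pairs), positive in 11 of 12 pairs (exact sign-flip permutation, p = 0.00537, adjusted p = 0.00895 over 5 tests), and amounted to 0.07 on chromosome II, 0.04 on III, 0.04 on IV and 0.07 on V, with adjusted p between 0.00244 and 0.0215. The 12 pairs include the mutants and HS, and the single pair with less H3K27ac in the centers than in the arms was HS replicate 2, in which the centers lay 0.06 below the arms. With each pair left out in turn, the excess over all chromosomes stayed between 0.04 and 0.06, and its adjusted p stayed under 0.05 in 12 of 12 cases.

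In HS the levels of the centers lay further apart than in WT, but no difference passed the test. Center III had levels of 0.26, 0.23 and 0.28 in HS, against 0.20, 0.18 and 0.16 in WT, a difference of 0.08 with no overlap between the groups. Center V had -0.20, -0.29 and -0.18 in HS, against -0.14, -0.13 and -0.11 in WT, a difference of -0.10, again without overlap. The levels of center IV were also lower in all 3 HS replicates than in any WT replicate (difference -0.05), while those of center II overlapped (difference -0.01, exact permutation p = 0.7). For centers III, IV and V the two-sided exact permutation test gave p = 0.1, the smallest that 3 against 3 replicates allow, and adjusted p = 0.3 over 15 tests, so none passed 0.05. The 4 centers together did not separate HS from WT (0.00 ± 0.04 in HS, 0.03 ± 0.01 in WT, exact permutation p = 0.4).

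In centers III, IV and V both mutants stayed closer to WT than HS did. In center II met-2Δ differed from WT more than HS did, and over all centers together about as much. In met-2Δ the centers together had a level of 0.00 ± 0.00, against 0.03 ± 0.01 in WT, with all 3 met-2Δ replicates below every WT replicate (difference -0.02, exact permutation p = 0.1, adjusted p = 0.3). The largest center differences between met-2Δ and WT were -0.04 in center II, without overlap (exact permutation p = 0.1), and -0.04 in center III (p = 0.2). The difference between centers and arms was 0.02 ± 0.01 in met-2Δ and 0.08 ± 0.03 in WT, again without overlap (difference -0.06, exact permutation p = 0.1). In met-2-CD no center differed from WT by more than 0.02 in the mean, and p lay at or above 0.2 by the exact permutation test, with met-2-CD replicate 3 above the other replicates in centers II and III and below them in center V.

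**Figure D2:**
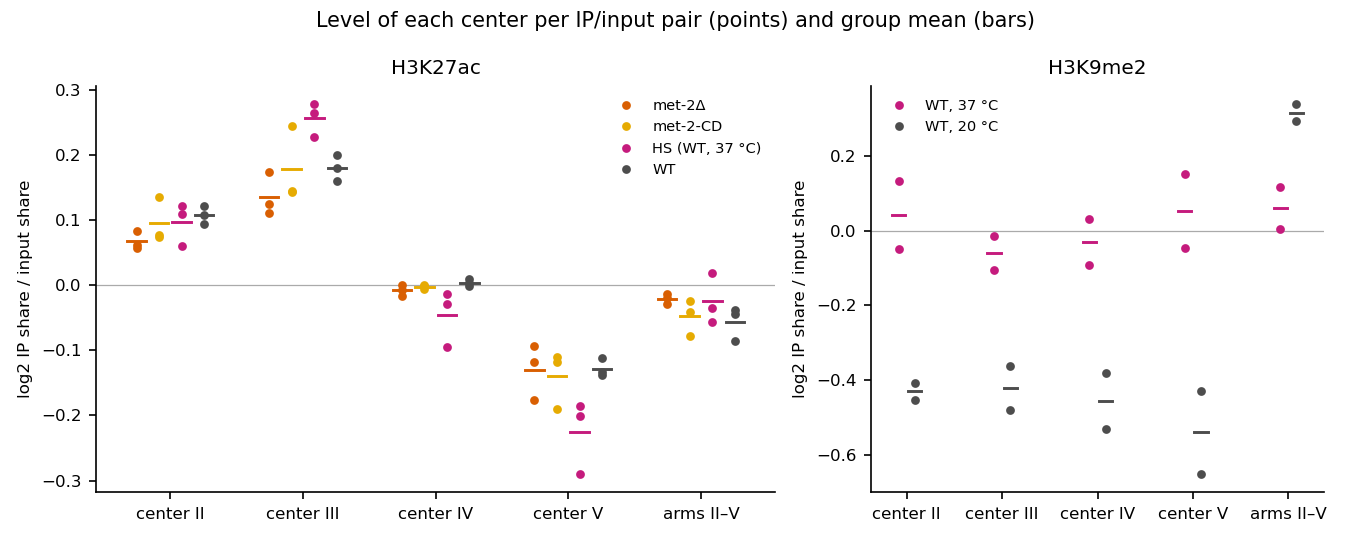
Level of H3K27ac (left) and H3K9me2 (right) in each center and in the arms of chromosomes II to V, as the log2 ratio of IP share to input share, with a point per replicate and a bar at the group mean. For H3K27ac the 4 centers keep the order III, II, IV, V in each group, and for H3K9me2 both 37 °C replicates lie above both 20 °C replicates in every center and below both in the arms.

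H3K27ac was concentrated in narrow sites. Adjacent windows were joined into regions if 2 or more of the 12 pairs had a log2 ratio of scaled IP to scaled input reads of 1 or more, where scaled reads are counts divided by the library total and multiplied by the mean library total. Because 2 pairs sufficed, a site marked in a single group could enter, and a difference of that group from WT is then built in. The genome held 5216 such regions, of which 1812 (34.7%) began in a center. Center III had the densest set, with 485 regions or 73.3 per Mb, followed by center II with 416 or 58.3 per Mb, center IV with 481 or 53.0 per Mb and center V with 430 or 40.4 per Mb. This is the order of the levels above. The centers held 54.1 regions per Mb and the arms 47.3. Regions covered 11.01% of the center windows and 9.17% of the arm windows, and their median WT log2 ratio was 1.06 in the centers and 0.94 in the arms. The median width was 1500 bp in both, and 278 center regions were a single window.

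The share of center IP reads that fell into these regions showed how strongly the mark was concentrated. It was 23.4%, 27.6% and 20.9% in met-2Δ embryos, 24.1%, 23.5% and 33.2% in met-2-CD and 32.6%, 36.2% and 32.2% in HS, against 29.2%, 26.5% and 24.9% in WT. The group means were 24.0 ± 3.397% in met-2Δ, 26.96 ± 5.41% in met-2-CD and 33.7 ± 2.19% in HS, against 26.9 ± 2.16% in WT (SD, n = 3 each), while the group means of the input share lay between 11.5% and 12.06%. All 3 HS replicates lay above the WT replicates, but regions that entered through HS alone raise the HS share by construction. In regions taken from the 6 mutant pairs only, an alternative chosen after seeing the data, the share was 24.7%, 27.3% and 24.4% in HS, against 22.8%, 20.5% and 19.3% in WT, again without overlap (difference 4.63 percentage points, exact permutation p = 0.1, the smallest possible). With regions likewise taken from the other groups only, met-2Δ (p = 0.3) and met-2-CD (p = 1) overlapped with WT by the same exact permutation test. Single windows also put the mean of HS highest and that of met-2Δ lowest. Those with a log2 ratio of at least 1 made up 5.10 ± 1.56% of the center windows in met-2Δ, 6.49 ± 2.099% in met-2-CD and 9.56 ± 0.21% in HS, against 6.97 ± 1.05% in WT. Only HS (9.41 to 9.80%) lay outside the WT range of 5.93 to 8.04%. The replicates of met-2Δ (3.67 to 6.76%) and met-2-CD (5.23 to 8.92%) overlapped with it.

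The widest H3K27ac regions of the centers were 16500 bp on chromosome II (6822985 to 6839484), 17500 bp on III (4268585 to 4286084), 10000 bp on IV (9768802 to 9778801) and 15500 bp on V (11945925 to 11961424). The widest, on chromosome III, had 13254, 15777 and 11979.6 scaled IP reads in met-2Δ embryos, 13954, 14451 and 20981 in met-2-CD and 17132, 19497 and 17337 in HS, against 17337, 15665 and 15527 in WT. Its groups overlapped and no contrast passed the test in these wide regions. The region of center IV with 10000 bp had 9177, 8143 and 9065 reads in HS, against 10837, 10412 and 9607 in WT, with all HS replicates below WT, but did not pass the test with library totals (log2 fold change -0.23 ± 0.19 SE, edgeR adjusted p = 0.37). With TMM scaling, explained below, it was called lower (-0.54, adjusted p = 7.2e-06). The highest WT log2 ratios of the centers were 2.51 at II 11758963 to 11759962, 1.81 at III 9816061 to 9820060, 1.99 at IV 4444325 to 4450824 and 1.70 at V 6098450 to 6101949.

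To ask which center regions gained or lost H3K27ac, the IP counts of all 5216 regions were fitted together with edgeR's quasi-likelihood test, with the total of all windows as library size, and a region was called at a Benjamini-Hochberg adjusted p under 0.01. In met-2Δ, 4 of the 1812 center regions rose and 0 fell, against 0.824% and 0.0959% of all regions called higher and lower. The 4 make up 0.221% of the center regions, and in the arms 23 regions rose and 4 fell. The 4 lay on chromosomes III, IV and V, and 3 of them also entered the set through pairs of met-2-CD and HS alone. In regions taken from those pairs, 3 of 1712 center regions rose and 0 fell, against 0.474% and 0.0618% of all regions. The median log2 fold change was -0.20 in the centers and -0.18 over all regions, and 189 of the 1812 center regions had a value above 0, but this shift depends on the library size. With TMM scaling, which centers the regions on each other, the median of the center regions was -0.03, with 16 called higher and 5 lower, and with DESeq2 19 and 20 were called. At an unadjusted p under 0.05 there were 148 center regions.

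The region with the lowest p in met-2Δ lay on chromosome V (15590409 to 15591908). It had 1156, 1494 and 1042 scaled reads in met-2Δ embryos, 619, 513 and 727 in met-2-CD and 819, 712 and 637 in HS, against 349, 434 and 351 in WT. Every met-2Δ replicate lay above every replicate of the other groups, and WT lay below all of them. Changed regions were named only if their replicates lay outside the WT range, so the separation of met-2Δ from WT was required. It entered the set through the 3 met-2Δ pairs, with 1 HS pair and no other pair at a log2 ratio of 1, so the met-2Δ values are a description, with a log2 fold change to WT of 1.70 ± 0.19 (SE). The log2 fold change was 0.94 in HS (edgeR adjusted p = 1e-05), and in met-2-CD it was 0.71 with an adjusted p of 0.0299, above the threshold. It was also the only center region called in met-2Δ relative to met-2-CD (log2 fold change 0.99 ± 0.18), and this too is a description. For that contrast 0.0767% of all regions were called higher and 0.0% lower, and the median over the center regions was -0.20, against -0.18 over all regions. In regions taken from HS and WT pairs only, edgeR called 0 of 1705 center regions between the mutants, 66 having an unadjusted p under 0.05.

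On chromosome III, a single window (4749083 to 4749582) rose in both mutants and in HS. It had 205, 218 and 157 reads in met-2Δ embryos, 178, 167 and 243 in met-2-CD and 182, 219 and 173 in HS, against 94.7, 94.8 and 100.4 in WT. The 3 groups lay well above WT, which the rule for naming regions required of met-2Δ and met-2-CD, and overlapped with each other. The log2 fold changes were 1.00 ± 0.21 in met-2Δ (edgeR adjusted p = 6.84e-04), 1.02 ± 0.22 in met-2-CD (adjusted p = 0.00194) and 0.98 in HS (adjusted p = 7.6e-05), all against the same WT replicates. The window lay inside an H3K9me2 domain and had a mean H3K9me2 log2 ratio of 1.89 at 20 °C. A second site on III (5814578 to 5815577) had 505, 443 and 449 reads in met-2Δ embryos, 327, 259 and 443 in met-2-CD and 502, 483 and 486 in HS, against 275, 207 and 281 in WT. It rose in met-2Δ (0.87, adjusted p = 6.22e-04) and HS (0.94, adjusted p = 7.91e-06), while in met-2-CD it did not pass the test (0.43, adjusted p = 1). Its H3K9me2 log2 ratio at 20 °C was 1.91, although it was not part of a domain. Leaving out 1 met-2Δ or WT replicate kept the met-2Δ call in 3 of 6 fits for the first site and in 4 of 6 for the second.

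The other region that rose in met-2Δ, on chromosome IV (4306326 to 4309325), was not among the 3 of lowest p and was added after its values were seen. It had 1101, 1542 and 986 reads in met-2Δ embryos, 809, 649 and 918 in met-2-CD and 1519, 1319 and 1425 in HS, against 713, 634 and 713 in WT (0.82 ± 0.19 in met-2Δ, edgeR adjusted p = 0.00188, and 1.05 in HS, adjusted p = 5.98e-07). All met-2Δ and HS replicates exceeded WT, but the met-2Δ call held in 2 of 6 fits without a replicate and was lost with the replicate number as a block (0.82, adjusted p = 0.01103). It overlapped an H3K9me2 domain too.

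In met-2-CD, 2 center regions rose and 0 fell, against 0.134% and 0.0383% of all regions called. The median log2 fold change was -0.00 in the centers and 0.00 over all regions, and 20 center regions had an unadjusted p under 0.05. With TMM scaling 4 rose and 0 fell, and with DESeq2 5 rose and 1 fell. One was the window on III above. The other lay on V (15585409 to 15586408), near the region first in met-2Δ, and had 368, 373 and 497 reads in met-2-CD, 268, 318 and 254 in met-2Δ and 281, 351 and 247 in HS, against 248, 228 and 197 in WT. Here met-2-CD was the highest group, and every met-2-CD replicate lay above all others (log2 fold change 0.88 ± 0.19 SE), where the naming rule required the separation from WT. It entered the set through 2 met-2-CD pairs and 1 HS pair, so this is a description, and met-2Δ did not pass the test against WT (0.32, edgeR adjusted p = 0.47). The region lay in an H3K9me2 domain. Both met-2-CD calls were lost without met-2-CD replicate 3, WT replicate 2 or WT replicate 3, and that on III also without WT replicate 1.

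**Figure D3:**
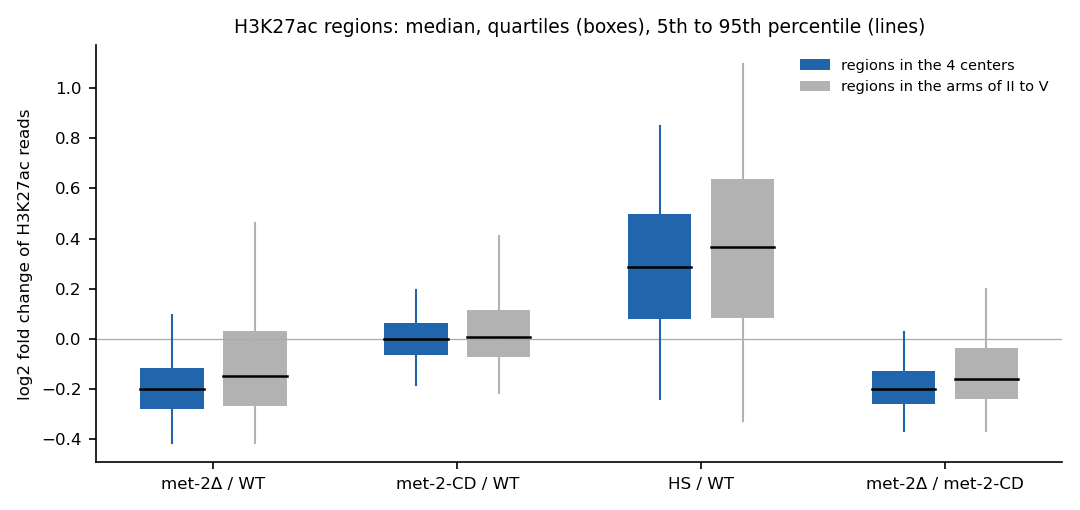
Log2 fold change of H3K27ac reads in regions of the centers (blue) and of the arms of chromosomes II to V (grey) for each contrast, with the median as a line, the quartiles as a box and the 5th to 95th percentile as a thin line. The center regions have medians of -0.20 in met-2Δ, -0.00 in met-2-CD and 0.29 in HS relative to WT, and their boxes are narrower than those of the arms.

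HS had the broadest effect on center H3K27ac. Of the 1812 center regions 321 rose and 6 fell, which is 17.7% and 0.331%, against 21.5% and 0.556% of all regions. Part of these gains is built in, since 241 of the 321 (75.1%) and 1217 of the 1485 not called (82.0%) would have entered through the mutant pairs. In regions taken from the mutant pairs only, 139 of 1593 center regions rose (8.73%) and 3 fell (0.188%), against 11.63% and 0.279% of all 4308 regions. With library sizes taken over the regions themselves the split was different, with 262 higher and 302 lower by TMM and 306 higher and 326 lower by DESeq2, since the median log2 fold change of the center regions was 0.29 with library totals (0.31 over all regions) and -0.04 with TMM. A rise thus stands relative to all reads of a library, and the gains and losses of regions named below kept their call and direction under both scalings. In the arms 469 of 1607 regions rose (29.2%) and 17 fell. Among the centers the share that rose was 23.3% on III (113 of 485, with 0 lower), 16.8% on IV (81 of 481, 0 lower), 15.6% on II (65 of 416, 4 lower) and 14.4% on V (62 of 430, 2 lower). Between 128 and 568 center regions rose when any library of the 4 groups was left out. The lowest count came without WT replicate 3 and the highest without met-2-CD replicate 3, and without WT replicate 2, HS replicate 2, HS replicate 1 or HS replicate 3 there were 145, 156, 201 and 205.

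Of the 5 named HS gains, 4 had entered the set through HS pairs alone. A low level in WT and in the mutants and a gain in HS are thus built in, and the values of these 4 are a description. A region on IV (8466308 to 8467307) had 369, 396 and 316 reads in HS, against 128, 84.9 and 92.0 in WT, a log2 fold change of 1.82 ± 0.21 (SE). It had the lowest WT log2 ratio of the 5, at -0.51, and 2 HS pairs brought it into the set. On chromosome V, 2 regions lay close together. The first (7913942 to 7916441) had 1613, 1374 and 1294 reads in HS, against 492, 376 and 521 in WT, and the second (7923942 to 7926941) 2306, 1683 and 1943 in HS, against 644, 563 and 684 in WT. The log2 fold changes were 1.62 ± 0.18 and 1.65 ± 0.19 (SE), and every HS replicate exceeded every WT replicate, as the naming rule required. The second also reached a log2 ratio of 1 in the 3 met-2-CD pairs, so its gain was not built in (edgeR adjusted p = 2.87e-15, called in 6 of 6 fits without an HS or WT replicate).

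On chromosome III the first region by p (9423563 to 9424562) had 714, 590.1 and 780.4 reads in HS, against 249.6, 201 and 286 in WT (1.497 ± 0.19 SE). On chromosome II (11562464 to 11563963) there were 1420.3, 1117 and 1244 reads in HS, against 516, 378 and 563 in WT (1.37 ± 0.18 SE). In all 5 regions met-2Δ and met-2-CD stayed close to WT, with fitted log2 fold changes between -0.16 and 0.38 that did not pass the test.

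The 6 center regions that fell had a median WT log2 ratio of 1.17, against 1.08 for those not called. A loss needs signal in WT, so part of this is built in. On chromosome V (9087937 to 9089436) HS had 284, 176 and 303 reads, against 664, 467 and 409 in WT, a log2 fold change of -1.01 ± 0.18 (edgeR adjusted p = 1.23e-06) from a WT log2 ratio of 1.29. On chromosome II (11758963 to 11759962), the site with the highest WT ratio of its center, HS had 474, 348 and 334 reads, against 831, 615 and 607 in WT (-0.83 ± 0.18, adjusted p = 7.74e-05). In met-2Δ the same site had 446, 469 and 347 reads, also below WT, but with an adjusted p of 0.0103, just above the threshold. Another loss on V (9094437 to 9096936), close to the first, had 1309.6, 1344 and 1438 reads in HS, against 2421, 1869 and 2027 in WT (-0.63, adjusted p = 0.00518), and was called in 0 of 6 fits without a replicate, whereas the losses at V 9087937 and II 11758963 were called in 6 of 6.

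**Figure D4:**
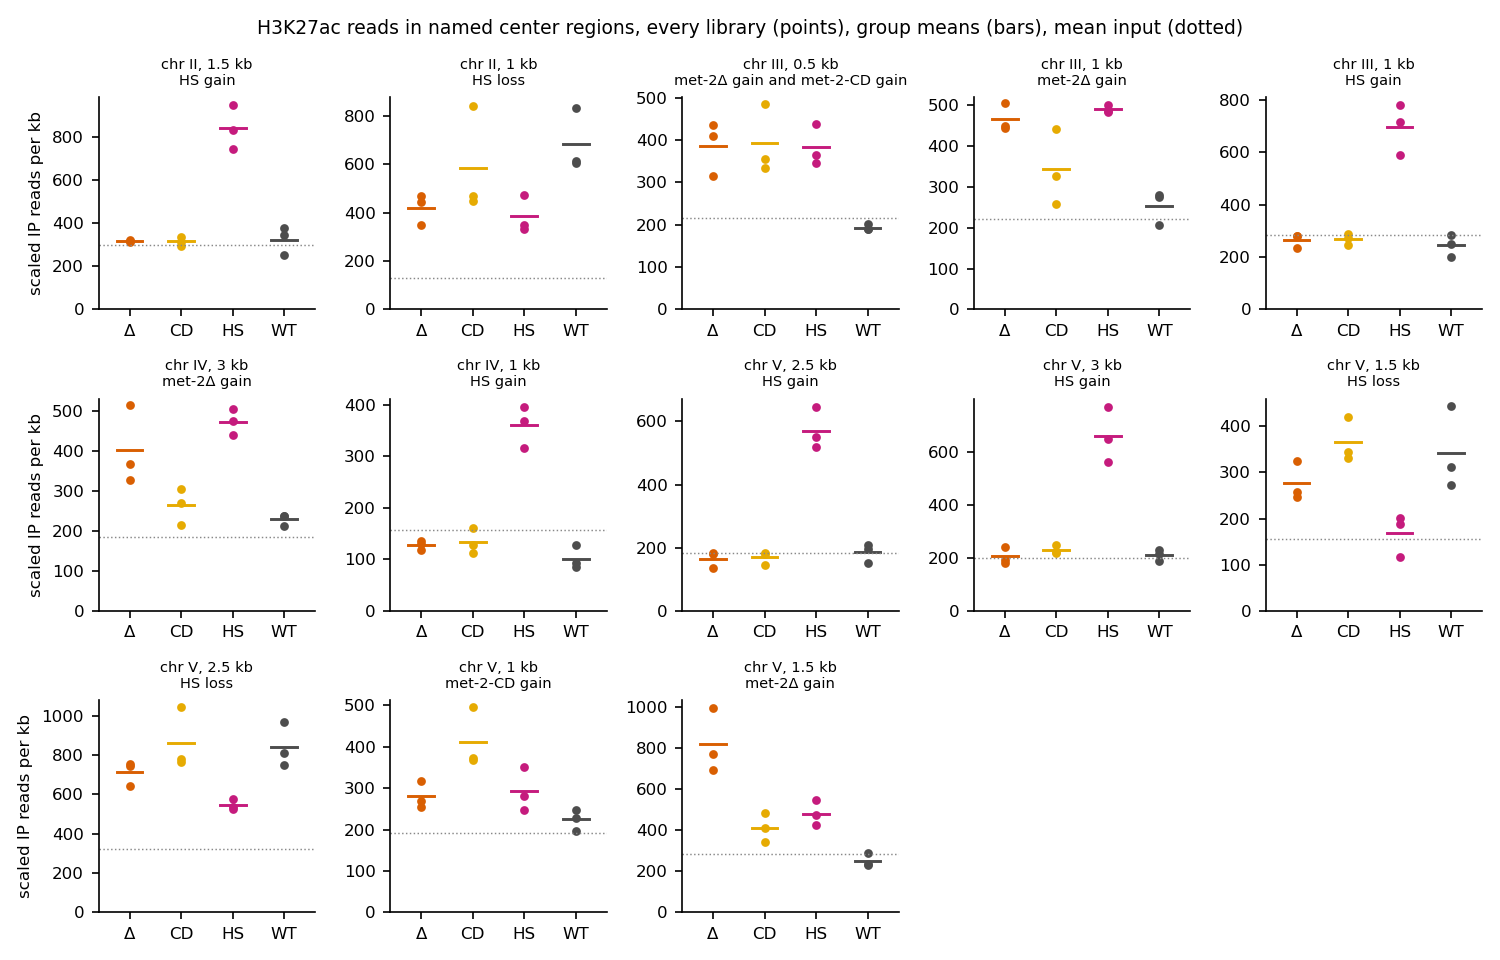
Scaled H3K27ac IP reads per kb in 13 named center regions, with a point per replicate for met-2Δ (Δ), met-2-CD (CD), HS and WT, a bar at the group mean and the mean input as a dotted line. In the HS gains the 3 HS replicates stand above all other points, and on chromosome V the last panel shows all 3 met-2Δ replicates above the other groups.

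H3K9me2 was low in the centers at 20 °C. The level of the 4 centers together was -0.07 and 0.08 in the 37 °C replicates, against -0.54 and -0.40 at 20 °C. The arms showed the opposite order, with a mean of 0.06 at 37 °C and 0.32 at 20 °C. Levels are shares of the chromosomal reads, so a lower share in the arms goes with a higher share elsewhere. They cannot show whether the amount of H3K9me2 in the centers rose with heat. Both 37 °C replicates exceeded both 20 °C replicates in each center. The means were 0.04 at 37 °C against -0.43 at 20 °C in center II, -0.06 against -0.42 in III, -0.03 against -0.46 in IV and 0.05 against -0.54 in V. The differences of 0.47, 0.36, 0.42 and 0.59 gave p = 0.333 by exact permutation, the smallest that 2 against 2 replicates allow, so the design cannot reach 0.05. The centers took 30.1% and 30.0% of the chromosomal IP reads at 37 °C, against 20.5% and 26.4% at 20 °C. Their share of input reads was 31.6% and 28.4% at 37 °C, against 29.7% and 34.8% at 20 °C, so the inputs differed as well.

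Over all 4 library pairs, the centers lay 0.42 below the arms of their chromosomes, with 1 pair, 37 °C replicate 2, above (exact sign-flip permutation, p = 0.25). On chromosome III the center lay below the arms in 4 of 4 pairs, by 0.68 in the mean, which gives the smallest p that 4 pairs allow but does not reach 0.05. Averaged over the 4 pairs, none of the centers differed from the mean of the other 3 by more than 0.05 (exact sign-flip p at or above 0.25), but for center V this average joined opposite values. Its difference from the other centers ranged from -0.16 to 0.10, and it was the highest center in both 37 °C pairs and the lowest in both 20 °C pairs. In single windows the replicates disagreed. A log2 ratio of at least 1 was reached by 15.0% and 54.0% of the center windows at 37 °C, against 17.03% and 1.86% at 20 °C. This share thus did not separate the temperatures. The median center window was at 0.49 and 1.06 at 37 °C, against -0.89 and -0.43 at 20 °C, without overlap. These window ratios were scaled by library totals, so the uneven mitochondrial reads of the inputs shift all windows of a pair together.

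To find the H3K9me2-marked sites of the centers, runs of 3 or more windows were called domains if the log2 ratio of scaled IP to scaled input, averaged over the 2 pairs at 20 °C, reached 1 in every window. Of 3688 domains 412 (11.2%) began in a center, or 12.304 per Mb, against 2208 or 65.0 per Mb in the arms. With libraries scaled by chromosomal reads only, which leaves the mitochondrial reads out, there were 165 in the centers and 1523 in the arms. They covered 2.51% of the center windows, against 17.5% of the arm windows. Centers III and IV held the most, with 101 domains (15.3 per Mb) and 139 (15.3 per Mb), and centers II and V held 70 (9.80 per Mb) and 102 (9.57 per Mb). This order changed with the definition. At a threshold of 1.5 there were 22 domains on II, 16 on III, 36 on IV and 22 on V, and in runs of at least 5 windows 21, 18, 32 and 19.

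Center domains were small. Their median width was 1500 bp and the widest spanned 9000 bp, against 27000 bp in the arms, and 231 (56.1%) were the minimum of 3 windows, while 11 had 10 windows or more. Their log2 ratios were also lower in the deeper replicate. The median was 2.22 in 20 °C replicate 1 and 0.71 in replicate 2, and 83 (20.1%) had a mean of at least 1 in both pairs, against 63.1% of the arm domains. Mitochondrial reads, which count in the library totals, made up 32.8% of the input of replicate 1 and 4.44% of that of replicate 2. The ratios of the replicates are therefore not on the same scale, and what part this has in their difference was not tested. When every window had to reach 1 in each pair, 48 center domains were left, with 7 on II, 9 on III, 20 on IV and 12 on V. Replicate 2 alone gave 114 and replicate 1 alone 1253. The number of marked sites in the centers thus ranged from 48 to 1253 with these definitions, and 23 of the 412 domains held a window of low input.

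Their density dropped with the distance from the edge of the center. Within 0.5 Mb of an edge there were 29.3 domains per Mb (117 domains), from 0.5 to 1 Mb there were 16.3, from 1 to 2 Mb 12.0, from 2 to 3 Mb 9.63, and from 3 to 6 Mb 6.01 (57 domains). H3K27ac regions did not follow this, with 51.4 to 60.0 per Mb over the same bins. The centers were 6.62 (III) to 10.7 Mb (V) wide, so centers IV and V make up more of the last bin than II and III do. The longest stretches without a domain were 664 kb on chromosome V (8951438 to 9615934), 573 kb on II, 526 kb on III and 515 kb on IV. The V stretch holds both regions of center V that lost H3K27ac in HS, at 9087937 and 9094437.

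The widest domains of each center were 8000 bp at II 11210966 to 11218965, 5000 bp at III 9338063 to 9343062, 9000 bp at IV 4162326 to 4171325 and 8000 bp at V 15501910 to 15509909. The domain on IV had 5206 and 4972 scaled H3K9me2 IP reads at 37 °C, against 12563 and 5772 at 20 °C. Both 37 °C replicates were lower, but 20 °C replicate 1 had more than any other library, and the log2 fold change of -0.85 ± 0.43 (SE) did not pass the test (edgeR adjusted p = 0.34). The same pattern held on V, with 4588 and 4371 reads at 37 °C, against 10559 and 4884 at 20 °C. On III the order of the lower 3 libraries turned, with 2481 and 2575 reads at 37 °C, against 5749 and 2355 at 20 °C.

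Some center domains were marked in both 20 °C replicates. The domain with the highest level in its lower replicate had log2 ratios of 2.38 and 2.45 on III (5284581 to 5286080), 2.90 and 2.16 on V (12575422 to 12576921), 2.66 and 1.90 on IV (4317326 to 4321825) and 4.35 and 1.55 on II (11906463 to 11907962). At 37 °C their log2 ratios were 1.51 and 1.59 on III, 1.30 and 1.85 on V, 1.60 and 1.79 on IV and 1.72 and 1.51 on II, where the median center window was at 0.49 in replicate 1 and 1.06 in replicate 2, and the 95th percentile at 1.32 and 2.00. In replicate 1 the domains on II, III and IV lay above that percentile and the domain on V just below it, and in replicate 2 all 4 lay within it. The V domain lay deep in the center, 3975 kb from the nearest edge. Its H3K9me2 reads were 1219 and 1391 at 37 °C, against 3697 and 1774 at 20 °C, and its H3K27ac reads were low in all groups, with 243, 184 and 261 in met-2Δ embryos, 233, 223 and 171 in met-2-CD and 137, 251 and 160.1 in HS, against 160.0, 222 and 209 in WT.

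**Figure D5:**
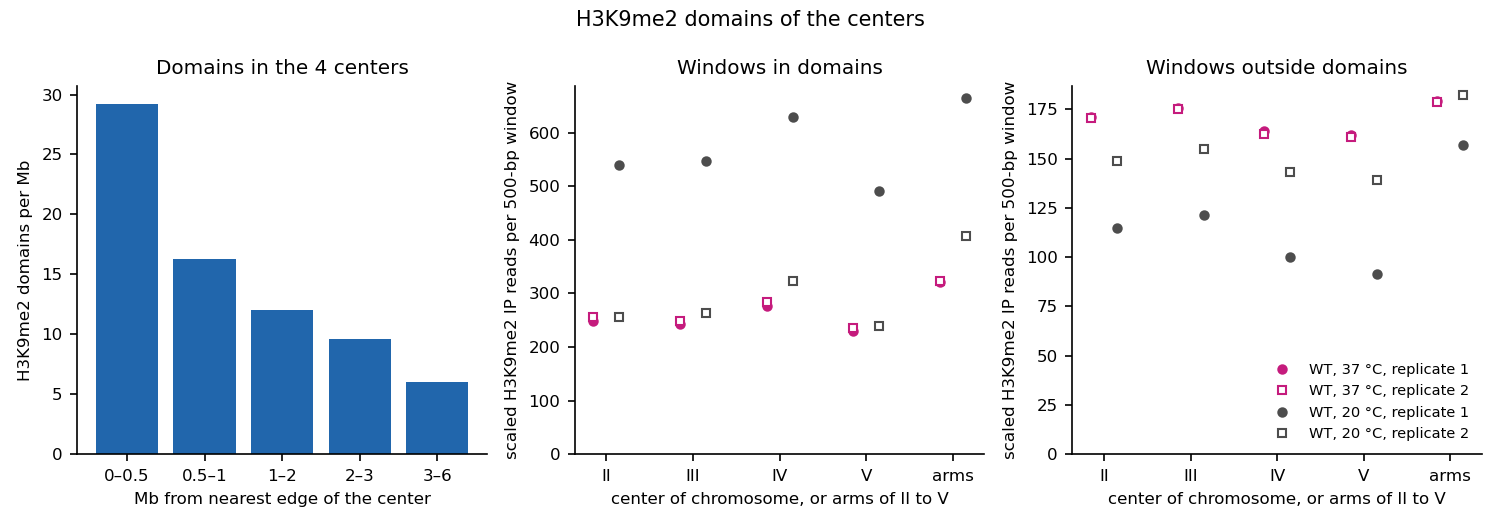
H3K9me2 domains of the centers: domains per Mb against the distance in Mb from the nearest edge of the center (left), and scaled H3K9me2 IP reads per 500-bp window inside domains (middle) and outside them (right) for each center and for the arms of chromosomes II to V, with filled circles for replicate 1 and open squares for replicate 2. The bars drop from 29.3 to 6.01 domains per Mb, and in the middle panel 20 °C replicate 1 stands far above the other 3 libraries.

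The effect of heat on these domains could not be separated from the difference between the 20 °C replicates. The mean number of scaled IP reads per center domain window was 253 and 259 at 37 °C, against 561 and 278 at 20 °C. The 37 °C mean amounted to 61.0% of the 20 °C mean (propagated SD 29.2, n = 2, exact permutation p = 0.333, the smallest possible), but 45.0% between the replicates numbered 1 and 93.2% between those numbered 2. Since domains were chosen for high values at 20 °C, part of a lower level at 37 °C is built in. In domains found in 20 °C replicate 1 and measured in replicate 2, the 37 °C mean amounted to 104.9% of the 20 °C mean, and in the reverse case 42.8%. Center windows outside domains had more reads in both 37 °C replicates than in either 20 °C replicate, with a 37 °C mean of 133.5% of the 20 °C mean (propagated SD 30.9, exact permutation p = 0.333). These reads are scaled to a common library total, so they too are shares and not amounts of the mark.

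Domain by domain, edgeR called 0 of the 412 center domains higher and 0 lower, against 0.0% and 0.0542% of all 3688 domains, while 38 had an unadjusted p under 0.05. DESeq2 called 6 higher and 13 lower. Its share over all domains is not given here, so these counts do not set the centers apart. With library totals the median log2 fold change was -0.63 in the centers and -0.70 over all domains, with all 412 center domains below 0. This direction depends on the scaling and on the 20 °C replicates. The center median was 0.11 with DESeq2, which takes library sizes over the domains themselves. Without 20 °C replicate 1 it was 0.03, and without 20 °C replicate 2 it was -1.06. In 143 center domains (34.7%) both 37 °C replicates were lower than both 20 °C replicates, whereas this held for 74.0% of the arm domains, and 20 °C replicate 1 exceeded replicate 2 in 406 of 412. The fits without a 20 °C replicate left a single library at 20 °C, so only their medians are given.

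The H3K9me2 domains were chosen without H3K27ac, so the acetylation in them can be tested. H3K27ac in center domains, as the mean log2 ratio inside minus outside, was -0.01, 0.01 and -0.05 in met-2Δ embryos, 0.00, 0.01 and -0.06 in met-2-CD and 0.21, 0.61 and 0.18 in HS, against -0.03, -0.02 and -0.03 in WT. The HS replicates lay above all others, and HS replicate 2 was far above the other HS replicates. The difference between HS and WT was 0.36 (exact permutation p = 0.1, the smallest possible, adjusted p = 0.2 over 6 tests), and in the arms it was 0.25. In the centers it joined a higher level inside domains and a lower level outside them. The inside level was 0.06 ± 0.13 in HS, against -0.15 ± 0.02 in WT (SD). Outside domains the level was -0.27 ± 0.11 in HS, against -0.12 ± 0.02 in WT.

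Over the domains themselves, HS raised H3K27ac in 82 of 412 and lowered it in 3 (edgeR adjusted p under 0.01), which is 19.9% and 0.728%, against 17.3% and 0.407% of all domains. The median log2 fold change was 0.17 in the centers and 0.12 over all domains. With TMM the counts were 49 and 9 and with DESeq2 69 and 27, without HS replicate 2 they were 37 and 0, and without WT replicate 1, 2 or 3 they were 46 and 3, 54 and 0, and 51 and 2. Of the 82, 14 lay in center II, 27 in III, 26 in IV and 15 in V. Of these 82, 30 (36.6%) overlapped a region taken from the mutant pairs only, against 47 of the other 330 (14.2%). Their H3K9me2 had a median log2 fold change at 37 °C of -0.78, against -0.60 for the others, as a description that rests on the uneven 20 °C replicates.

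The domain with the lowest p in HS lay 59 kb inside the edge of center II (11960963 to 11963962). It had 2375, 2493 and 2103 H3K27ac reads in HS, against 932, 963 and 832 in WT, with no overlap (1.35 ± 0.15 SE, edgeR adjusted p = 2.97e-08). It had 1902 and 1761 H3K9me2 reads at 37 °C, against 3235 and 2672 at 20 °C, with both 37 °C replicates below both 20 °C replicates. On IV (4039327 to 4042326) there were 1611, 2319.6 and 1359.8 reads in HS and 1224, 1447 and 1021 in met-2Δ, against 768, 673 and 631 in WT, and both rose, by 1.35 in HS (adjusted p = 3.73e-07) and 0.83 in met-2Δ (adjusted p = 0.00442). The next HS gains were at IV 6421817 to 6423316 (1.19, adjusted p = 1.8e-07), III 4173085 to 4176084 (1.14, adjusted p = 2.92e-07) and III 5450580 to 5452079 (1.15, adjusted p = 1.52e-06). All 5 were called in 6 of 6 fits without a replicate. The widest domain, at IV 4162326 to 4171325, had 2589.9, 2597 and 2386 reads in HS, against 1375, 1713 and 1687 in WT (0.67, edgeR adjusted p = 0.0012, called in 5 of 6 fits without a replicate).

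In met-2Δ, 4 center domains gained H3K27ac and 0 lost it, against 0.624% and 0.0% of all domains. The median log2 fold change was -0.03 in the centers and 0.06 over all domains, and 57 center domains had an unadjusted p under 0.05. With TMM 1 was called, and with DESeq2 7 higher and 6 lower. The first by p, on III (10050060 to 10054559), had 812, 890.2 and 763 reads in met-2Δ embryos, 605, 639.5 and 594 in met-2-CD and 678, 744 and 651 in HS, against 512, 471 and 497 in WT. All met-2Δ replicates were above all others (0.74 ± 0.13, adjusted p = 0.00128), and the HS replicates also rose over WT (0.49, adjusted p = 0.00615), a call that held in 1 of 6 fits without a replicate and not with TMM. The others were the domain at IV 4039327 to 4042326 above and the domains under the regions at IV 4306326 and III 4749083, with 0.91 (adjusted p = 0.00161) at IV 4306826 to 4308825 and 0.80 (adjusted p = 0.00544) at III 4748583 to 4750082. The met-2Δ calls held in 1 or 2 of 6 fits without a replicate, and that at III 4748583 was lost with the replicate number as a block (0.79, edgeR adjusted p = 0.0161).

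In met-2-CD, 2 center domains gained H3K27ac and 0 lost it, against 0.0813% and 0.0% of all domains, with a median log2 fold change of -0.02 in the centers and 0.02 over all domains. At an unadjusted p under 0.05 there were 19 center domains. The 2 called were the domain at III 4748583 to 4750082 (0.88, edgeR adjusted p = 0.0086), which had 361, 359.9 and 424 reads in met-2-CD, against 212, 192 and 217 in WT, and the domain at V 15584409 to 15586408 (0.89, adjusted p = 0.00244), which had 635, 669 and 840.0 reads in met-2-CD, against 425, 361 and 373 in WT. In both the met-2-CD and WT replicates were far apart, but the first call was lost in all 6 fits without a met-2-CD or WT replicate and the second in 4 of 6. With TMM 0 domains were called, and with DESeq2 3 rose and 1 fell.

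Of the 412 center domains 109 (26.5%) overlapped an H3K27ac region of any group, close to the 24.0% of all domains and the 21.7% of the arm domains, with 40 of 101 (39.6%) on III, 19 of 70 (27.1%) on II, 29 of 139 (20.9%) on IV and 21 of 102 (20.6%) on V. Across 65627 center windows past the input minimum, Pearson's r between WT H3K27ac and H3K9me2 log2 ratios at 20 °C was 0.16 (Spearman's rho 0.16), against 0.06 in the arms, as a description of windows that share libraries and depth. The 321 center regions that rose in HS had a median H3K9me2 log2 ratio of -0.05 at 20 °C, against -0.24 for those not called, and 28 of them (8.72%) touched a domain, against 81 of 1485 (5.45%). Of the 6 regions that fell, 0 touched a domain.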

How the data were processed

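The authors aligned paired reads to ce10 with bowtie through QuasR v.1.22.0, kept uniquely aligned reads and deposited raw counts per 500-bp window for 32 libraries. Both mates were counted, so reads are not independent molecules. Groups came from the labels, and each IP was matched to the input of the same replicate number. The labels speak of biological replicates but differ on their number, so p-values cover only the spread between these samples.

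Counts were scaled by library totals, and a pseudocount of 2 was added before log2 ratios. Regions also needed a mean scaled input of at least 10, no p is given for a site that entered only through the groups compared, and the mitochondrial genome was left out. All regions or domains of the genome entered 1 fit of edgeR 4.0.16 (R 4.3.3), over all 12 IP libraries for H3K27ac and 4 for H3K9me2 (DESeq2 1.42.0 as an alternative), and single values with exact permutation tests in Python 3.11.15 with scipy 1.17.1. Same-numbered replicates of met-2Δ and WT deviated together over all regions (r of 0.17 to 0.28), so a replicate block was set beside that contrast. The fits were tested on simulated data. Other scalings, thresholds and left-out replicates were tried. The windows and lists were chosen with earlier results of these data known.

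Named sites were, per center, the widest region and domain and those with the highest level, the 3 gained and 3 lost regions of lowest p per contrast whose replicates all lay outside the WT range, the first HS region per center, regions called between the mutants, and up to 5 domains called per contrast.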

Additional observations from a re-analysis of the deposited data

How the results depend on the processing

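Regions taken from the pairs of the 2 groups outside a contrast were an alternative chosen after seeing the data. Levels kept their direction in 451 of 464 alternative fits. Among the 13 turns, the H3K9me2 level of center III relative to the other centers was 0.0652 as a mean of window log2 ratios, against -0.01. The other 12 came with a replicate left out, where met-2Δ minus WT in center V ranged from -0.0195 to 0.0218, met-2-CD minus WT from -0.0356 to 0.0147 in center III, -0.0260 to 0.0137 in center V, -0.00674 to 0.0238 in the arms and -0.0375 to 0.00221 for centers minus arms, HS minus WT in center II from -0.0243 to 0.00649, and H3K9me2 from -0.0388 to 0.0221 in center III and -0.0579 to 0.0303 in center V relative to the other centers. The center domain level at 37 °C over 20 °C also turned, to 0.0690 in log2, with domains from 20 °C replicate 1 and the level from replicate 2. The cause was not tested.

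Center region calls, as higher and lower, were for HS 262 and 302 with TMM, 306 and 326 with DESeq2, 257 and 1 with reads outside the regions as library size, 164 and 2 at a region threshold of 1.5, 453 and 55 at 0.5, 2076 and 2453 with every window on its own, 139 and 3 in regions of the mutant pairs, and 561 and 24 at an adjusted p under 0.05. For met-2Δ they were 16 and 5 with TMM, 19 and 20 with DESeq2, 5 and 2 with chromosomal totals, 1 and 0 with outside reads, 4 and 1 without the input minimum, 11 and 7 at 0.5, 26 and 17 with every window and 5 and 4 at an adjusted p under 0.05. For met-2-CD they were 4 and 0 with TMM, 5 and 1 with DESeq2, 0 and 0 with outside reads and at 1.5, 5 and 1 at 0.5, 4 and 1 with every window, and 1 and 0 in regions of the other 2 groups. For met-2Δ against met-2-CD they were 2 and 0 with TMM, 4 and 0 with DESeq2, 0 and 0 with outside reads, 2 and 1 at 0.5, 6 and 6 with every window, and 0 and 0 in regions of the other 2 groups. With a replicate left out they ranged from 128 to 568 and 2 to 19 for HS, 1 to 6 and 0 to 7 for met-2Δ, 0 to 3 and 0 to 1 for met-2-CD, and 0 to 1 and 0 to 0 between the mutants.

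H3K27ac calls at center domains were 49 and 9 for HS, 1 and 0 for met-2Δ and 0 and 0 for met-2-CD with TMM, 69 and 27, 7 and 6, and 3 and 1 with DESeq2, 13 and 0, 1 and 0, and 0 and 0 in domains reaching 1 in each pair, and 113 and 10, 7 and 2, and 2 and 0 at an adjusted p under 0.05. With a replicate left out they ranged from 37 to 91 and 0 to 4 for HS, 0 to 5 and 0 to 1 for met-2Δ, and 0 to 2 and 0 to 0 for met-2-CD. H3K9me2 calls were 6 and 13 with DESeq2, and ranged from 0 to 6 and 0 to 402 with a replicate left out, where the lone sample is assumed to vary like the other group. The centers held 96 domains at a threshold of 1.5, 48 with 1 in each pair, 1095 and 90 with runs of at least 2 and 5 windows, 165 with chromosomal totals, and 114 to 1253 from a single replicate.

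Same-numbered replicates deviated together in met-2Δ and WT (0.17 to 0.28). In met-2-CD and WT the correlations were 0.14, 0.23 and -0.24. No other pair of groups was positive in all replicates, and the lowest correlation was -0.40. With the replicate block over all groups, which ended the met-2Δ calls at the region IV 4306326 and the domain III 4748583 and no other named met-2Δ call, center regions called in HS were 211 and 2, in met-2Δ 3 and 0, and in met-2-CD 2 and 0, domains were 73 and 2 for HS, 3 and 0 for met-2Δ and 1 and 0 for met-2-CD, and the domain level at 37 °C came to 64.8% of the 20 °C level. Named sites kept their direction in 353 of 353 fits and lost their call in 77. The depth of the H3K9me2 libraries at 20 °C and the 2 replicates per temperature limit every H3K9me2 statement.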
